A study of Mus musculus with 3 samples.

Results

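Erythroid genes and globins were followed in the genital tubercle of 3 mouse embryos. The set comprised 37 genes chosen by name, and a gene entered with every probe set annotated to exactly 1 of those symbols. That gave 64 of the 45101 probe sets on the array and 33 of 18193 named genes. Hbb-b1, Ahsp, Epb41 and Trim58 had no such probe set and were not analysed here. The choice used no measured value, but it was made with earlier results of these data known.

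Red cells of the mouse embryo come in successive waves. Primitive cells arise in the yolk sac, circulate while still nucleated and carry embryonic globins, while definitive cells mature in the fetal liver from precursors that divide under GATA1, KLF1 and TAL1. A maturing precursor builds haem, globin and a membrane skeleton, and later loses most of its RNA other than globin RNA.

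Each of the 3 samples was the genital tubercle of a single embryo, labelled as male, of embryonic day 14 and Theiler stage 22, and was read on 1 array. Females of the strain FVB/N had been mated to males carrying the SMAA/EYFP transgene, a yellow fluorescent reporter named for smooth muscle actin (Acta2) whose signal guided the dissection. The samples form 1 group with no control or treatment, and the label that differs is a landmark of limb development: fingers could be seen in replicate 3, while the footplates of replicates 1 and 2 had indented edges. The labels tie no embryo to a litter or a day.

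Several facts of the arrays touch the values below. A signal was called above background when it passed 136.0, 253.3 and 198.6 in replicates 1, 2 and 3, the signal that 95% of 80 probe sets for chemosensory receptors (smell and taste) stayed under. Replicate 3 goes against its label. Xist, the RNA of the inactive X chromosome of females, read 8.05, 118 and 61883 in replicates 1, 2 and 3, and the Y-linked Eif2s3y read 4384, 3738 and 37.9. Replicate 3 is thus only labelled male, and comparisons of replicates 1 and 2 use it only in the alignment and the choice of probe sets. Leaving it out, the median difference between them moved from -0.31 to -0.29 for globins and from 2.04 to 2.06 for regulators. Replicate 1 stood apart in controls of RNA quality, with an actin 3′ to 5′ ratio of 7.38 against 2.21 and 4.42, and an 18S signal (middle probe set) of 39691 against 93465 and 82158. The other 18S probe sets differed more, at 13587 against 78759 and 60294 (3′) and 11133 against 70236 and 42009 (5′). The part of RNA quality in the differences below was not tested. Of 11 measured markers of the tubercle, 10 were above background in 3 of 3 samples. In such bulk tissue, fewer cells of a type and less RNA per cell cannot be told apart.

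Erythroid transcripts were present in every sample. Of the 33 genes with a probe set, 24 passed background in each of the 3 samples, against 60.5% of all genes, and 32 were above it in at least 1. In replicates 1, 2 and 3 taken singly, 32, 30 and 24 genes were above background. The exception in every sample was the single probe set of Hba-a1, which read 9.84, 26.9 and 18.2. Leaving out replicate 3, 30 genes were above background in both remaining samples.

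The embryonic globins were above background throughout. Hbb-y, the embryonic β-like globin of primitive red cells, read 59853, 86889 and 77722 in replicates 1, 2 and 3. These values lie near the top of the arrays, whose highest signals were 81456, 96445 and 88186. The SD was 0.17 (aligned log2, n = 3; aligned means that the samples were shifted to a common median), and 0.36 on a dimmer probe set. Hbb-y was highest in replicate 2, and replicate 1 was lower than replicate 2 by 0.31 on the log2 scale, a sign that turned (to 0.17) when samples were aligned on all probe sets. A second probe set read 59360, 88177 and 76725, and the dimmer one 12036, 21184 and 12334. Hbb-bh1, the other embryonic β-like globin, read 622, 2004 and 513 in replicates 1, 2 and 3. Replicate 2 stood above the others, 3.54-fold over replicate 3, and 2.75-fold over replicate 1. Hba-x, the embryonic α-like globin, read 1351, 1452 and 682. Replicates 1 and 2 lay close together there, with an order that turned between deposited and aligned signals, and replicate 3 was lower, with replicate 1 at 2.10-fold of it.

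All 8 measured genes of haem synthesis and iron uptake were highest in replicate 1 on their probe set of highest mean signal. Over all genes, 53.8% were highest in replicate 1. Alas2, the red cell form of the first and rate-limiting enzyme of haem synthesis, read 2421, 2000 and 787, so replicates 1 and 2 were 3.26-fold and 2.30-fold over replicate 3. Fech, which inserts iron into the ring in the last step, read 21388, 13410 and 7160, with replicate 1 at 3.17-fold of replicate 3. Alad, the enzyme of the second step, read 11286, 7258 and 4454, and Ppox, which acts just before Fech, read 750, 548 and 318. On these probe sets both were highest in replicate 1 and lowest in replicate 3. The other probe set above background of each (Alad 1608, 416 and 646, Ppox 348, 309 and 373) was lowest in replicate 2. Urod (32560, 22492 and 19861), which trims the side chains of the ring, and Uros (2588, 1909 and 1758), which closes it, differed less. Urod was 1.69-fold and 1.74-fold higher in replicate 1 than in replicates 2 and 3. Cpox, of the step before Ppox, read 468, 307 and 177 and was not above background in replicate 3. Tfrc, the receptor that brings in iron on transferrin, read 15047, 9014 and 7646. Of this class 0 of 8 were over 2-fold higher in replicate 1 than in replicate 2, against 8.67% of all genes. That count became 7 of 8 when samples were aligned on all probe sets. That alignment shifts this pair by 0.48 (log2) for all genes alike, and the share of all genes past 2-fold under it was not counted. Against replicate 3, 6 of 8 were over 2-fold higher (5.46% of all genes).

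Membrane genes varied far more. Slc4a1, the band 3 anion exchanger that anchors the skeleton, read 18738, 6337 and 1686 in replicates 1, 2 and 3. No 2 samples were close, with replicate 1 at 3.46-fold of replicate 2 and 11.8-fold of replicate 3. Ermap, an immunoglobulin-like protein of the erythroblast surface, read 9391, 1889 and 154, the last not above background. Replicate 1 exceeded replicate 2 by 5.82-fold. Against replicate 3 its excess was at least 50.2-fold. Rhd, the mouse Rh polypeptide, read 3393, 427 and 429. Here replicates 2 and 3 were alike and replicate 1 was 9.30-fold and 8.39-fold above them. Its partner Rhag, an ammonia channel, read 1485, 270 and 87.0, at least 7.94-fold higher in replicate 1 than in replicate 3. Kel, the peptidase of the Kell blood group, read 1572, 710 and 52.7, not above background in replicate 3.

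The rest of the membrane class had the same sample highest. Ank1, the ankyrin that ties band 3 to spectrin, read 1624, 799 and 440. Sptb, erythroid β-spectrin, read 644, 445 and 152, and Epb42, which stabilises the band 3 complex, read 603, 200 and 95.9. Sptb was above background in replicates 1 and 2, and Epb42 in replicate 1 alone. Tspan33, a tetraspanin of erythroblasts, read 2981, 1360 and 570. Mfsd2b, which exports sphingosine 1-phosphate from red cells, read 763, 342 and 119. Replicate 1 was highest and replicate 3 lowest in both, and Mfsd2b was not above background in replicate 3. Gypc, glycophorin C, which many cell types make, departed from that order with 2578, 1052 and 1506. All 11 membrane genes were highest in replicate 1, against 53.8% of all genes. Of them, 10 of 11 were over 2-fold higher there than in replicate 2 (8.67% of all genes), Sptb being the other one.

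Most regulators of precursors were highest in replicate 1 by a wide margin. Klf1, the activator of adult β-globin and of many red cell genes, read 3189, 843 and 292, a 4.43-fold and an 11.6-fold excess in replicate 1. Hemgn, a nuclear protein of haematopoietic precursors, read 12860, 2141 and 981. Replicate 1 was 7.03-fold over replicate 2 and 13.9-fold over replicate 3. Gata1, the GATA factor of the red cell lineage, read 1354, 405 and 353, and Tal1, its bHLH partner, 4505, 961 and 755. In both, replicates 2 and 3 differed by 1.04-fold and 1.15-fold, while replicate 1 was 3.92-fold and 5.49-fold over replicate 2. Gfi1b, a repressor needed for erythroid and megakaryocyte growth, read 810, 355 and 229. Nfe2, a bZIP factor of globin regulation and platelet formation, read 934, 139 and 105, above background in replicate 1 alone. Zfpm1 (677, 750 and 501), the GATA1 cofactor FOG1, and Epor (287, 299 and 231), the erythropoietin receptor, were within 1.43-fold and 1.32-fold in every pair of samples, and their highest deposited signal was in replicate 2. Of the 8 regulators, 6 were over 2-fold higher in replicate 1 than in replicate 2 (8.67% of all genes). The same number were over 2-fold higher there than in replicate 3 (5.46%). Trim10, a ring finger protein of erythroid maturation, read 3515, 1326 and 530. Car2, the carbonic anhydrase abundant in red cells and found in other tissues, read 12170, 4148 and 1566. Replicate 1 was highest and replicate 3 lowest in both.

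**Figure D1:**
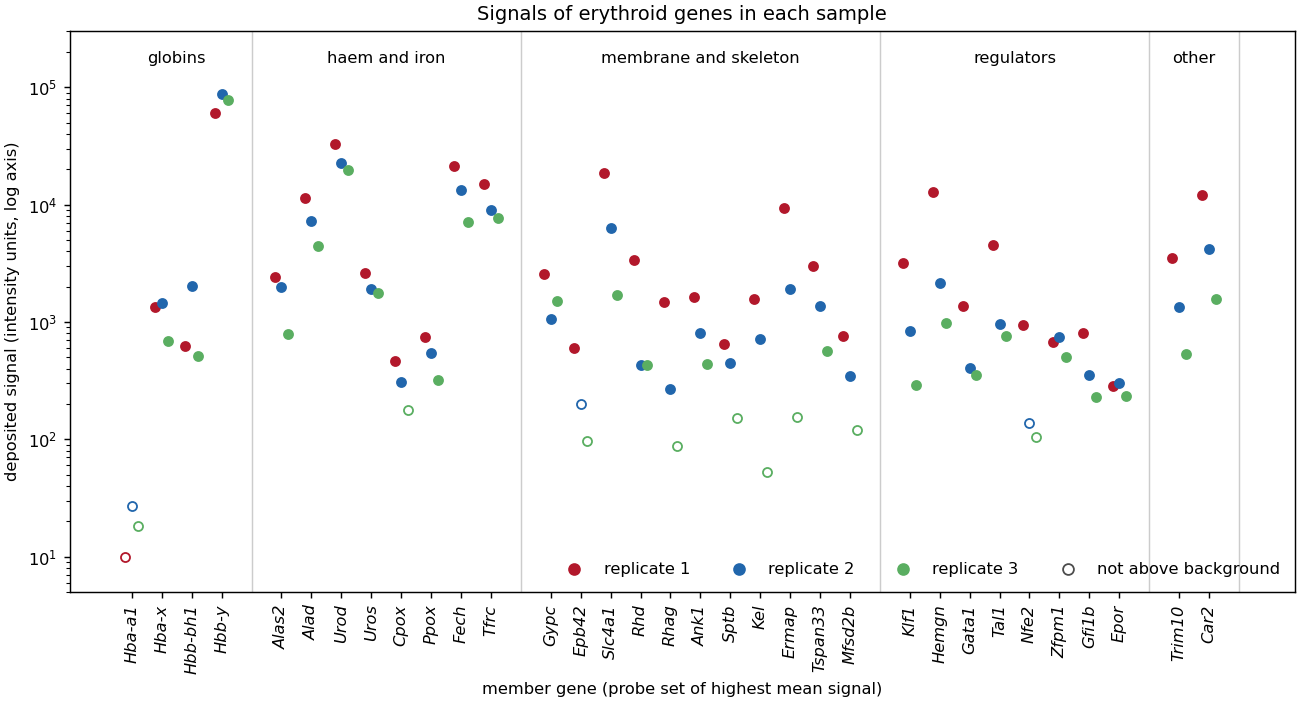
Deposited signal on a log axis of the 33 measured member genes, grouped by role, 1 point per sample, with open points where the signal was not above background. Red points of replicate 1 lie on top for haem, membrane and most regulator genes, while Hbb-y and Hbb-bh1 have their highest point in replicate 2.

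Counts past 2-fold are given beside the same counts over all genes. Of 32 members tested, 18 were over 2-fold higher in replicate 1 than in replicate 2, against 8.67% of all genes, and 1 was over 2-fold lower (Hbb-bh1, not past 2-fold when aligned on all probe sets), against 4.41%. Against replicate 3, 25 of 32 were over 2-fold higher in replicate 1 (5.46% of all genes) and 0 lower (3.59%). Between replicates 2 and 3, 10 of 30 were over 2-fold higher in replicate 2 (3.12%) and 0 lower (4.68%). Counted over probe sets rather than genes and in either direction, 22.8%, 15.8% and 11.4% of all probe sets were over 2-fold apart in these 3 pairs. Genes tested because they were high in 1 sample had to differ, so the members above background in both samples were also counted. Of these, 16 of 30 were over 2-fold higher in replicate 1 than 2 (8.78% of such genes), 17 of 24 higher than in replicate 3 (4.59%), and 7 of 24 higher in replicate 2 than 3 (2.77%). Replicate 1 was the highest sample for 30 of the 32 members, against 53.8% of all genes. With 1 array a sample, these pairs have no test.

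The roles differed in size of difference. Between replicates 1 and 2 the median log2 difference was -0.31 for the globins (3 genes), 0.80 for haem synthesis and iron uptake, 1.48 for membrane genes and 2.04 for regulators, beside 0.27 over all genes. The globin median is the value that turns with scaling, being 0.17 when samples are aligned on all probe sets. Against replicate 3 the medians of replicate 1 were 0.36, 1.32, 2.47 and 2.17 in the same order, and 0.14 over all genes. Between replicates 2 and 3 they were 0.95, 0.53, 0.87 and 0.44, against -0.10. In that pair Hbb-bh1 exceeded 2-fold among the globins and Klf1 among the 7 regulators tested. Hbb-y differed by 0.02 on the probe set near the top of the arrays and by 0.64 on the dimmer one. Members that most cell types express, such as Urod and Tfrc, had medians of 0.85, 1.19 and 0.29 in the 3 pairs. The 21 measured members outside these and the globins had 1.63, 2.47 and 0.99.

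**Figure D2:**
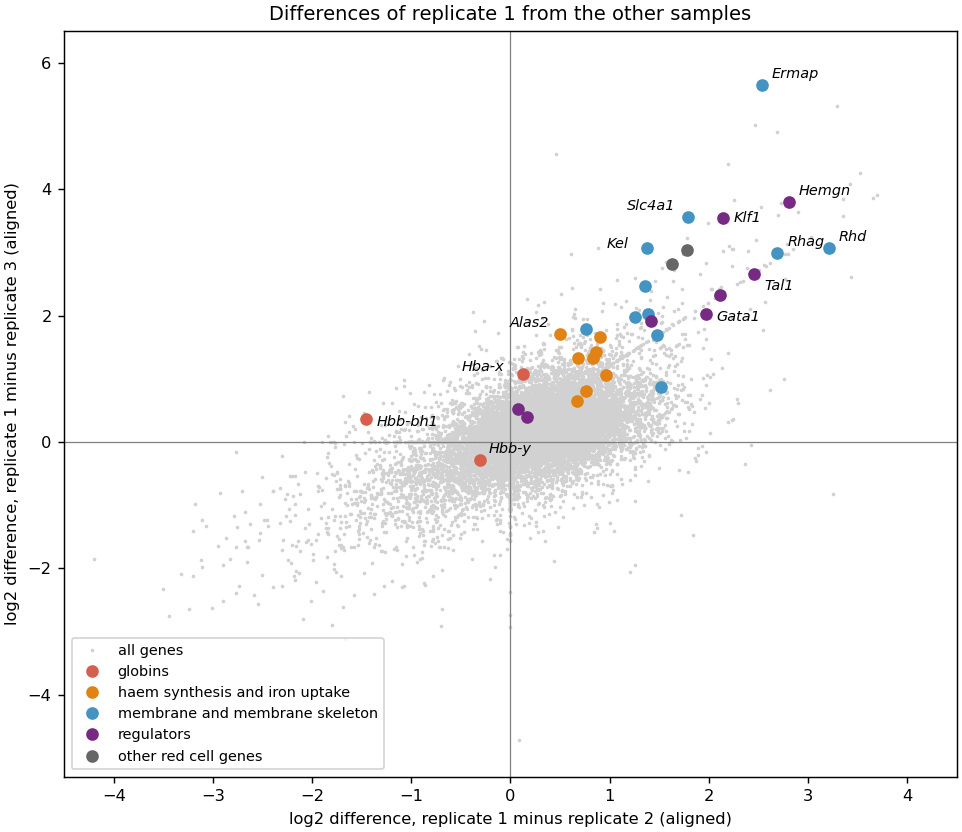
Aligned log2 difference of replicate 1 from replicate 2 (horizontal) and from replicate 3 (vertical) for all genes tested in both pairs (grey) and for the members by role, with signals below background set to the background. Ermap is drawn at 5.65, a lower bound, regulators and membrane genes lie toward the upper right, and Hbb-bh1 and Hbb-y lie left of zero.

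Probe sets of 1 gene could differ. Of 13 members with several probe sets above background in some sample, Tspan33 had 4, with log2 differences between replicates 1 and 2 from 0.89 to 1.99. Slc4a1 ran from 0 to 2.12 over 3 probe sets, the lowest being one that was above background in replicate 1 alone and close to it (163, 78.2 and 20.9). That 0 is no measured equality, because the signal in replicate 1 lay under the background of replicate 2. Cpox (-1.15 to 0.84) and Tfrc (-0.63 to 0.97) had probe sets that pointed in opposite directions, so their differences are less certain. Tfrc is also read by 3 control probe sets, whose 3′ set gave 739, 1191 and 618, highest in replicate 2. Alad, Urod, Uros, Ppox and Fech kept 1 direction between replicates 1 and 2 on every probe set above background. Against replicate 3 that did not hold for all of them. Replicate 2 minus 3 ran from -0.78 to 0.56 for Alad and from -0.41 to 0.64 for Ppox. Replicate 1 minus 3 ran from -0.01 to 1.32 for Ppox.

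The landmark contrast set replicate 3 (visible fingers) against replicates 1 and 2 with limma over 29051 probe sets, with 1 residual degree of freedom. That degree of freedom holds only the difference between replicates 1 and 2. The contrast therefore says little on members that differ between those samples. At a Benjamini-Hochberg adjusted p under 0.05 it called 0 of 51 member probe sets fitted and 0% of all probe sets. With limma, 3 member probe sets had an unadjusted p under 0.05, against 605 of all 29051. They belong to Kel, Ermap and Slc4a1 (its dim probe set). None of the 3 was above background in replicate 3, and limma used their measured signals, so the sizes of these differences are not given. Aligning the samples on all probe sets, limma called 2, of Ermap and Kel, among 86 of all 29051, with a lowest adjusted p of 0.0118 against 1.00 otherwise. The contrast cannot tell the landmark apart from the Xist signal or from any other property of replicate 3.

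The start regions of 5 genes with large differences between samples are shown because these genes had the same sample highest and each holds the letters bound by GATA factors. They are the 250 bases before the annotated start (RefSeq, GRCm38.p6), 5′ to 3′ on the gene's strand, with GATA matches in capitals. The search took AGATAA as one form, with AGATAG, then TGATAA, and finally TGATAG as the other forms, on either strand. Hba-x and Hbb-y are given for comparison. The windows are Ermap at chr4:119189996-119190245 on the minus strand, Rhd at chr4:134864286-134864535 on the plus strand, Rhag at chr17:40810899-40811148 on the plus strand, Kel at chr6:41704326-41704575 on the minus strand, Klf1 at chr8:84901732-84901981 on the plus strand, Hba-x at chr11:32276350-32276599 on the plus strand and Hbb-y at chr7:103853208-103853457 on the minus strand.
Ermap: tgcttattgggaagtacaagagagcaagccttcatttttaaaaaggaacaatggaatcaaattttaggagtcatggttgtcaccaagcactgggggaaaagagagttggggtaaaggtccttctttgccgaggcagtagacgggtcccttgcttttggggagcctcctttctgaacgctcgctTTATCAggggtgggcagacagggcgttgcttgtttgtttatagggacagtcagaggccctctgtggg
Rhd: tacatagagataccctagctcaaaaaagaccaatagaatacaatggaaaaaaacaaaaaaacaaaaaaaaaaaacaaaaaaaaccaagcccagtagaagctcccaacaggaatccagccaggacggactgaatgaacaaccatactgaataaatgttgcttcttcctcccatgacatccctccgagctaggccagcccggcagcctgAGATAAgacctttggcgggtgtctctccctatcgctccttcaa
Rhag: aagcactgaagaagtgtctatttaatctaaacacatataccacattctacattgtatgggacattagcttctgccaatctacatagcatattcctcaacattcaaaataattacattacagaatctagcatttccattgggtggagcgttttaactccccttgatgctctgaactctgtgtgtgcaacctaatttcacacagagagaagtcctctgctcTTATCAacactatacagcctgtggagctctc
Kel: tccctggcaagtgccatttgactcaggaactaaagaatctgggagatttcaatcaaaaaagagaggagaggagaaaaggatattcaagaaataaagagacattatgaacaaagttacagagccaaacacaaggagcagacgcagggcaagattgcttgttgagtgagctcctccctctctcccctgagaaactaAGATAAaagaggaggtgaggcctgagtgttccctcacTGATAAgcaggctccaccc
Klf1: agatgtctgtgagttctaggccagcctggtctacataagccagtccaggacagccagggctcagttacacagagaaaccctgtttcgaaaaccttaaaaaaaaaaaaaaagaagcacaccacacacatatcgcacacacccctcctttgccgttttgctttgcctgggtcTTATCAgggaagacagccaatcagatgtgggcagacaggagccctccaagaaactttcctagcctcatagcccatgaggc
Hba-x: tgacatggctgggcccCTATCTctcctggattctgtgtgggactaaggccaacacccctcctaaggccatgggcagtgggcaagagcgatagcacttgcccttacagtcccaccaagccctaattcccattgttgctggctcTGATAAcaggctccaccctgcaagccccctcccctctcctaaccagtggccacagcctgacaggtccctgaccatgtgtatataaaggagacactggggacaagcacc
Hbb-y: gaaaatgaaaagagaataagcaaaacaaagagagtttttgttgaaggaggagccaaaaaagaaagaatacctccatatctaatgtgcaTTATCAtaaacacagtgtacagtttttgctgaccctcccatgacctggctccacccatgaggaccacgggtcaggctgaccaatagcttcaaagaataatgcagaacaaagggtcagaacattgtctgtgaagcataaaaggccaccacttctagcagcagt

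Such a GATA match stood in 19 of 34 member windows, and in 26.5% of all 32851 windows of that length. The 34 windows belong to 28 of the 37 genes, the others having no window. Ermap, Rhd, Rhag and Klf1 each had 1 match and Kel had 2. Klf1 had the farthest of these, at -80 to -75 from the start, and Kel the nearest, at -19 to -14. In Hbb-y the match lay at -162 to -157, and Hba-x had 2, at -234 to -229 and -108 to -103. The letters CCNCNCCC, a core bound by KLF1 and by other factors of its family, on either strand, stood in 18 of 34 member windows and 45.9% of all windows. Matches of these letters can overlap one another in runs of C or G. The letters CCAAT, on either strand, stood in 19 of 34 member windows and 33.8% of all windows. TATAAA on the gene's strand stood in 2 of 34 and 7.59%. Gata1 had no GATA match in its window but 3 of CCNCNCCC. Among the 13 genes with a window that were over 2-fold higher in replicate 1 than 2, 10 had a GATA match, and among the 13 other measured members 7 did. These are matches of letters and not sites of binding.

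**Figure D3:**
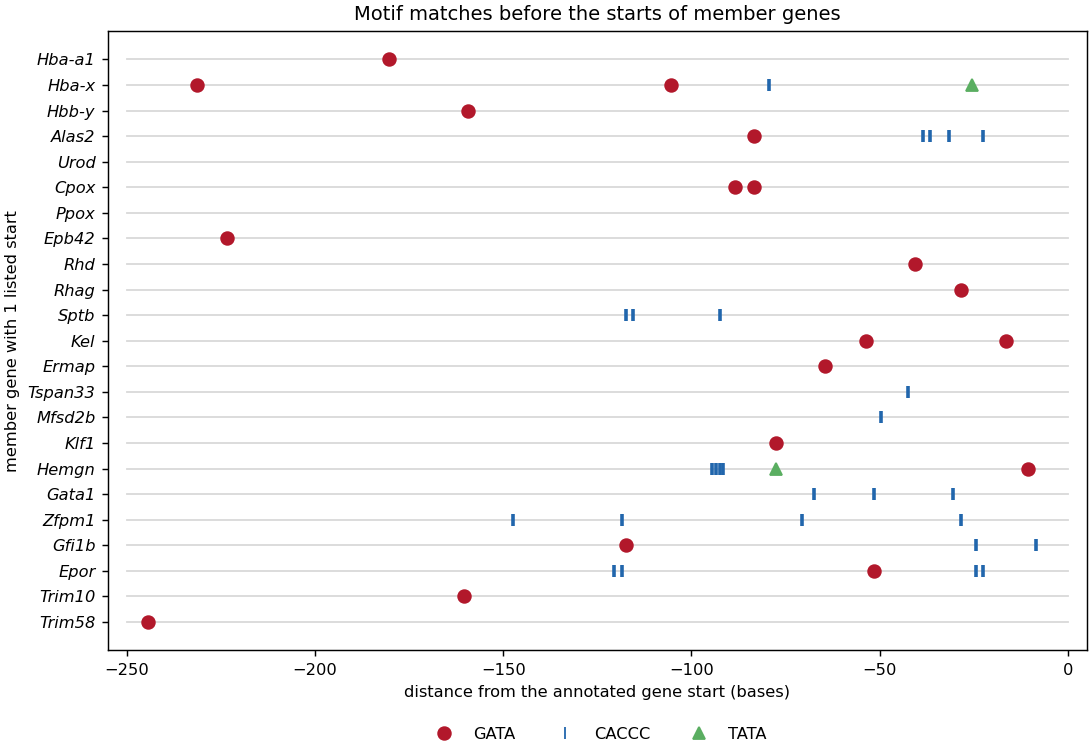
Positions of motif matches in the 250 bases before the annotated start (horizontal axis, bases from the start) of 23 member genes with 1 listed start, 1 line per gene. Circles are GATA, bars CCNCNCCC (labelled CACCC) and triangles TATAAA on the gene's strand, which Hba-x and Hemgn hold.

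A second list of 48 red cell genes, 37 of them measured, had smaller median differences. Over 2-fold higher in replicate 1 were 11 of 37 against replicate 2 (8.67% of all genes) and 12 of 37 against replicate 3 (5.46%). In replicate 2 against 3, 5 of 35 were over 2-fold higher (3.12% of all genes) and 1 lower (4.68%). The medians were 0.53, 0.60 and 0.00 in the 3 pairs, the last being -0.06 on measured signals. Tmcc2, a transmembrane protein abundant in red cells, read 6378, 2253 and 1265 in replicates 1, 2 and 3. Ctse, a protease of erythroid precursors and gut, read 1724, 651 and 501, and Slc25a37, the mitochondrial iron importer mitoferrin, 7184, 4926 and 2354. All 3 were highest in replicate 1. Lyl1, a relative of Tal1, read 833, 751 and 242, and Cpeb4, a translational regulator, 731, 259 and 437. Hbb-b2, an adult β-globin gene with close copies, read 1561, 2334 and 492, highest in replicate 2 as the embryonic β-like globins were. Its difference of replicate 1 minus 2 was -0.35 (aligned log2), and aligning on all probe sets shifts that pair by 0.48. The order of replicates 1 and 2 thus turns with scaling, as it did for Hbb-y.

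Markers of other cell types also differed between the samples. Of 18 hepatocyte genes listed, 16 were measured and 16 of 16 were highest in replicate 1, against 53.8% of all genes. Hepatocyte medians were 2.24, 3.38 and 1.36 in the 3 pairs, with summed signals of 141893, 58653 and 11200. Alb, serum albumin, read 42766, 9061 and 1400, Ttr, the thyroxine carrier transthyretin, 10438, 1896 and 369, and Afp, α-fetoprotein, 52165, 40064 and 7049. Definitive red cells form in the fetal liver. The part of liver tissue, or of the other cell types here, in the erythroid differences was not tested. Skeletal muscle genes had medians of 1.41, 1.98 and 0.71 and summed signals of 25900, 7549 and 3445. Megakaryocyte and platelet genes, 11 measured, had medians of 0.41, 0.61 and 0.09 and summed signals of 11525, 3840 and 4149. Of 10 tested, 2 were over 2-fold higher in replicate 1 than in replicate 2, against 8.67% of all genes. Replicate 1 was the highest sample for 7 of the 10, against 53.8% of all genes. The platelet chemokine Ppbp had the largest difference, at 5982, 646 and 1035. Pf4 (3086, 1163 and 1302) and Itga2b (699, 460 and 347) were also highest in replicate 1. Gp1bb (213, 341 and 261) was highest in replicate 2 and Treml1 (154, 41.5 and 451) in replicate 3. Gp9, a defining platelet receptor subunit, was not above background in any sample.

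Granulocyte and mast cell genes had medians of 0.90, 0.80 and 0.16. Mpo, the peroxidase of myeloid precursors, was highest in replicate 1 (1337, 398 and 136), while the mast cell proteases Cpa3 (1450, 458 and 1643) and Cma1 (472, 296 and 552) were highest in replicate 3. Macrophage genes had medians of 0.80, 0.49 and -0.32. Endothelial genes, whose cells line the vessels that hold the blood, had 0.04, -0.19 and -0.33 and summed signals of 14907, 15624 and 17815. Tubercle genes had 0.00, 0.00 and 0.13, and smooth muscle genes 0.07, 0.13 and 0.06. The tubercle medians of 0.00 were differences set to 0, and on measured signals they were -0.026 and -0.0011. Single genes departed from these medians. Tbx5 of the tubercle list read 2523, 16977 and 5275, and Acta2 of the smooth muscle list 5273, 2736 and 2378. No other gene of these lists was over 2-fold apart between replicates 1 and 2. Whether any list differed from the erythroid genes was not tested.

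**Figure D4:**
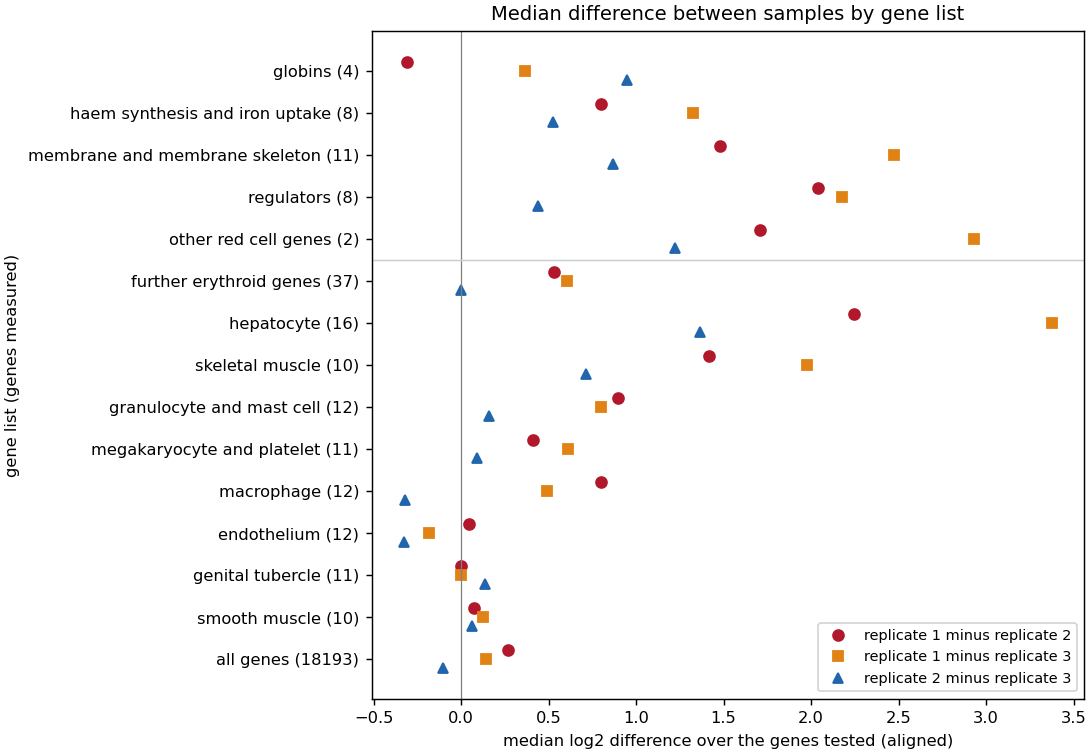
Median aligned log2 difference (horizontal axis) for each pair of samples over the genes tested in each list, with the number of genes measured in brackets; the lists above the line are the member roles. Hepatocyte genes reach 3.38 and regulators 2.17 between replicates 1 and 3, while endothelial, tubercle and smooth muscle lists lie near zero.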

How the data were processed

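Total RNA of 3 genital tubercles was amplified in 2 rounds and biotin labelled, per the labels' protocols. The deposited intensity values, 1 per probe set and array, came from the authors' GCOS software, per the submitters' processing notes, with version and algorithm not given in the sources used here. The deposited intensities had a mean of 1500.0 in each sample after trimming 2% at each end, so a global scaling had been applied, and no scanner files were used. Of 45101 probe sets, 64 controls were set aside (3 of them belong to Tfrc). A platform annotation gave 34945 of the others 1 symbol, 932 several and 9160 none. All 33 member genes matched a RefSeq identifier (GRCm38.p6) and 0 symbols changed. A gene stands for its probe set of highest mean signal. Named genes are the measured members plus, from other lists, mostly the largest differences or highest signals. Gp1bb, Treml1, Gp9, Tbx5 and Acta2 were named outside that choice.

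Signals were floored at 1, log2 transformed and aligned on the median of the 21597 probe sets above background in 3 of 3 samples. In differences between pairs of samples, a signal not above background was put at that background, so such a fold is a lower bound, written as at least. limma (version 3.58.1, R 4.3.3; lmFit and eBayes) fitted the landmark contrast on measured signals, with none put at the background, and was tested on simulated data. The few arrays limit the precision, and p-values measure only the spread between these samples. The members and lists were chosen with earlier results of these data known. Alternatives were other alignments, backgrounds, fold limits, probe set rules and left-out samples.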

Additional observations from a re-analysis of the deposited data

Results flagged for a closer look

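The adult globins were read mainly by probe sets that carry several gene symbols and so fall outside the rule. One probe set shared by 4 adult β-globin symbols read 49451, 62991 and 30361 in replicates 1, 2 and 3. It was higher in replicates 1 and 2 than in replicate 3, by 1.73-fold and 1.88-fold after alignment. Of 3 probe sets shared by 2 adult α-globin symbols, the first read 40148, 57465 and 17008, the second 47563, 63508 and 24817, and the third 48896, 73452 and 28131. All 3 were highest in replicate 2, by 2.32-fold to 3.06-fold over replicate 3, while the single-symbol probe set of Hba-a1 was not above background. Their differences of replicate 1 minus 2 were only -0.29, -0.19 and -0.36 (aligned log2). Aligning on all probe sets shifts that pair by more, 0.48, so the order of replicates 1 and 2 turns with scaling. They were noted because they hold a strong signal that the comparisons of the members did not use.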

How the results depend on the processing

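Of 132 values recomputed under alternatives, 118 kept their direction and size within the limits set. Aligned on the median of all probe sets, which shifts replicate 1 against 2 by 0.48 and against 3 by 0.33 (log2), the class medians of replicate 1 minus 2 became 0.17 for globins, 1.27 for haem synthesis, 1.95 for membrane genes, 2.52 for regulators and 2.18 for the other red cell genes. That alignment turned the sign for the globins alone, 95 of 96 class median values keeping theirs, and limma called 2 member probe sets in the landmark contrast instead of 0. With a fold limit of 4 the members over the limit numbered 7, 14 and 1 in the 3 pairs instead of 19, 25 and 10. The share of all genes past that limit was not counted, so these numbers have nothing to be set against. Averaging all probe sets of a gene, the haem synthesis medians against replicate 3 were 0.72 for replicate 1 and 0.14 for replicate 2. Without members that most cell types express, which leaves Alas2, they were 1.71 and 1.20. With measured signals in place of the background, an alternative chosen after seeing the data, the membrane median of replicate 2 minus 3 was 1.40 instead of 0.87. Without each replicate in turn, the members above background in the remaining samples numbered 24 to 30. The landmark contrast has no residual degrees of freedom without replicate 1 or 2 and no contrast without replicate 3, so it was not refitted. No paired analysis was possible because the samples form 1 group. Genes near background, such as Epor and Nfe2, are limited by signal over background.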
